A study of Mus musculus with 32 samples.

Results

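Transcripts of 2 sodium proton exchangers, Slc9a3 and Slc9a8, and of 2 scaffolds of the Slc9a3 protein, Slc9a3r1 and Slc9a3r2, were followed across a mouse model of benign prostatic hyperplasia. They are 4 of the 13780 genes in the deposited table of TPM, a measure of transcript abundance adjusted for transcript length whose values add up to nearly the same total in every library. All 4 were found by gene symbol and have values in all 32 libraries. Slc9a3 leads the set, and it was picked because its level differed with hormone treatment in the anterior and dorsal lateral prostate. Hormone differences of the 4 genes in those lobes are therefore a description and carry no test. Tests between untreated tissues use the same control libraries, so they are not independent of that choice.

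All mice were C57/BL6. In the T+E2 groups, adult males had 25 mg of testosterone and 2.5 mg of oestrogen implanted under the skin together, for 2 weeks, and control males received neither hormone. No sham implant is mentioned in the labels, and the animals' ages are not given. Both hormones were present in every treated adult, so their effects cannot be told apart. Whole tissue was taken from the urethra and from 2 parts of the prostate, namely the anterior lobe (AP) and the dorsal lateral lobe (DLP). The urogenital sinus (UGS), the embryonic tissue that forms the prostate, came from male E16.5 embryos and was cultured with testosterone for 6 days or without hormone. The days in culture are recorded only for the testosterone libraries. An effect of testosterone therefore cannot be told apart from one of a different time in culture. Each of the 8 groups held 4 libraries, named here by the number or letter in their titles. Whether libraries of a group were separate animals or cultures is not stated, so p-values measure the spread between libraries, which may be technical. The number of reads behind a TPM value cannot be recovered, and depth is therefore unknown.

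Sodium proton exchangers swap sodium for protons across the plasma membrane or the membrane of an organelle, and so set pH and drive the uptake of salt, bicarbonate and water across epithelia. The Slc9a3 product, NHE3, sits in the apical membrane of kidney, gut and efferent duct epithelium. The Slc9a8 product, NHE8, is found in the Golgi region and in apical membranes. Slc9a3r1 and Slc9a3r2 encode NHERF1 and NHERF2, PDZ-domain adaptors that tie NHE3 and other membrane proteins to ezrin and the actin cytoskeleton. Slc9a3r1 is known as an oestrogen-induced gene of human breast cancer cell lines.

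The sequence just upstream of the transcription start is shown for Slc9a3, which had the widest range of levels, and for both scaffold genes, whose levels lay on opposite sides of control in treated AP. Sequences are RefSeq's for mouse build GRCm38.p6, which differs from the build mm9 named for the deposited values, and all 4 genes matched an entry. Each runs over the 250 bases before the start, 5′ to 3′ on the gene's strand, and capitals mark matches to the GC box GGGCGG or its reverse complement.
Slc9a3 (chr13:74121163-74121412, plus strand): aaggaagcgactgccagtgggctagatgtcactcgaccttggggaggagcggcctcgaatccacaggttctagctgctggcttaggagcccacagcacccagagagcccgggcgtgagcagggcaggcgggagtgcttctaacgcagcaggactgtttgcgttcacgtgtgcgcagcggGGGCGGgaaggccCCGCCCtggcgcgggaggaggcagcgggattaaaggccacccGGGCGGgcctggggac
Slc9a3r1 (chr11:115163091-115163340, plus strand): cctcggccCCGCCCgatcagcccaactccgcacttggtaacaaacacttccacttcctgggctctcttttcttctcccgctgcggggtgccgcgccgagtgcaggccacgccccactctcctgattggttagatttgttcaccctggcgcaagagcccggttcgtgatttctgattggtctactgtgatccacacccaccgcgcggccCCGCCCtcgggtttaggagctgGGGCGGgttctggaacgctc
Slc9a3r2 (chr17:24650306-24650555, minus strand): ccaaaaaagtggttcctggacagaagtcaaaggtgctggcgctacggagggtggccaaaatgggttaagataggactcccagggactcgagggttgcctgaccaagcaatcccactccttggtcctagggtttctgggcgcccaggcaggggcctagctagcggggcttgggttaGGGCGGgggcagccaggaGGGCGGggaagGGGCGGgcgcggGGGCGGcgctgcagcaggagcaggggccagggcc
Slc9a3r2 has a further RefSeq start on chromosome 17, which is not printed. The Slc9a3 window held 3 GC boxes, the Slc9a8 window 2, the Slc9a3r1 window 3, and the printed Slc9a3r2 window 4. In the Slc9a3 window they began 71, 58 and 16 bases before the start. A GC box was present in 32.7% of the 32817 distinct windows of this length. Both strands were searched for the full oestrogen response element (GGTCA, any 3 bases, TGACC) and for an androgen response string (AGAACA, any 3 bases, TGTTC). Neither matched any of the 5 windows of these 4 genes. The 2 patterns occurred in 0.064% and 0.0305% of all windows. The oestrogen half-site GGTCA, which is contained in the full element, matched only once, in the printed Slc9a3r2 window, against 35.2% of all windows with a match. The androgen half-site AGAACA, contained in the androgen string too, matched in none of the 5, against 16.1% of all windows. In the reference annotation none of the 4 genes overlapped another gene.

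Library sums lay between 994133 and 997961 TPM, and between 12289 and 13337 genes reached 1 TPM per library. All 10 epithelial markers were in the table, with summed levels of 3433 to 4142 TPM in T+E2 AP against 3506 to 3792 TPM in control AP, and of 2667 to 3173 TPM in T+E2 DLP against 2261 to 2861 TPM in control DLP. All 8 seminal vesicle secretion genes looked at were present, and 3 AP libraries stood apart on them. T+E2 libraries 17 and 18 held 99146 and 72084 TPM and control library 9 held 54217 TPM, while the other AP libraries held at most 1988 TPM. In DLP these transcripts made up 15.3% to 26.7% of TPM with T+E2 and 17.3% to 23.7% in control. All 12 skeletal muscle markers were present, and their sum was 2595 and 2877 TPM in T+E2 DLP libraries 18 and 24, against at most 897 TPM in the other DLP libraries. Of 10 leukocyte markers, 6 were in the table, and their sums were 127 to 222 TPM in T+E2 AP against 376 to 536 TPM in control AP, and 183 to 218 TPM in T+E2 DLP against 429 to 799 TPM in control DLP. Of those 6, 3 fell in AP (limma on log2(TPM + 1), Benjamini-Hochberg adjusted p under 0.05, the rule for every call below), where 12.9% of all genes were called lower, and 2 in DLP, where 4.63% were. In AP, where 21.6% of all genes were called higher, 4 of 10 stromal markers were higher and 1 lower, and 2 of 10 endothelial markers were higher and 1 lower, and none of either list was called in DLP. Of the 10 epithelial markers, 2 were called higher and 2 lower in AP, and 2 higher and 0 lower in DLP. In DLP 6.09% of all genes were called higher. Spint2, which is among the 10, averaged 882 TPM in T+E2 DLP and 617 TPM in control DLP. Levels given below per 1000 TPM of the epithelial marker sum depend on such shifts, whose part was not tested. No marker of these lists was at 0 in all AP or all DLP libraries. The part of these cell types in the results was not tested, except that values without the libraries named here are given.

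Slc9a3, the apical exchanger, was abundant in the treated lobes and close to 0 in all other groups. In T+E2 AP its level was 143.8, 99.11, 182.56 and 225.41 TPM in libraries 17, 18, 2 and 3, against 0.49, 0.40, 0.43 and 0.34 TPM in control libraries 6, 7, 8 and 9. The lowest treated AP library was far above the highest control library. Group means were 163 ± 53.9 TPM with T+E2 and 0.415 ± 0.0624 TPM in control (SD, n = 4 each), a ratio of 392. The log2 fold change was 6.79 ± 0.20 (SE). Here and below, a log2 fold change is a difference of log2(TPM + 1), in which the added 1 shrinks the change of a gene that is near 0 in a group. It ranked 5th from the top among 12525 genes fitted in AP, and it was chosen for this.

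T+E2 DLP held 38.55, 43.44, 56.11 and 25.49 TPM of Slc9a3 in libraries 1, 18, 2 and 24, against 0.74, 0.41, 0.80 and 0.83 TPM in control libraries 10, 7, 8 and 9. Again no treated library came near a control library. Means were 40.9 ± 12.7 TPM with T+E2 and 0.695 ± 0.194 TPM in control, a ratio of 58.8 and a log2 fold change of 4.58 ± 0.20, which ranked 5th of 13108 genes. Each treated AP library was above each treated DLP library. Without the 3 AP libraries rich in seminal vesicle transcripts the log2 fold change in AP was 7.15, and without the 2 DLP libraries rich in skeletal muscle transcripts that in DLP was 4.82.

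**Figure D1:**
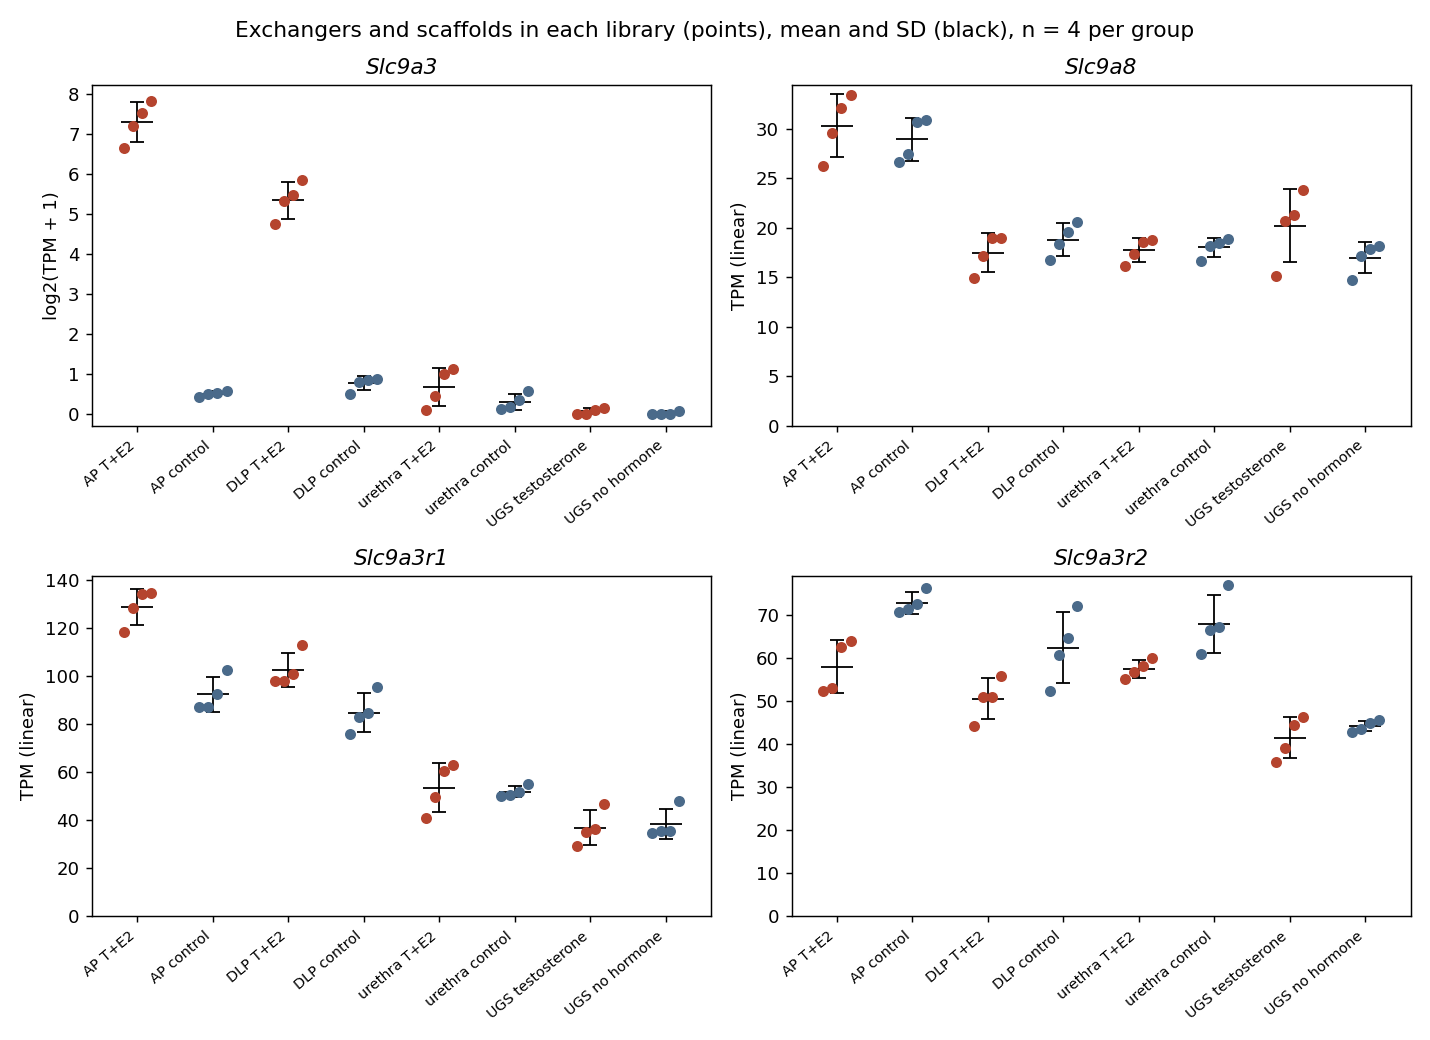
Level of each of the 4 genes in every library (points) of the 8 groups, with mean and SD in black (n = 4). Slc9a3 is on the log2(TPM + 1) scale and the other 3 genes are in TPM on a linear axis from 0. Slc9a3 stands above all other groups in T+E2 AP and T+E2 DLP only, and Slc9a8 stands higher in both AP groups than in any other.

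Relative to epithelial transcripts the separation of Slc9a3 was similar in size. Slc9a3 held 26.8 to 54.5 TPM per 1000 TPM of the epithelial marker sum in T+E2 AP and 0.0970 to 0.132 in control AP. The same quantity was 9.56 to 19.4 in T+E2 DLP and 0.181 to 0.324 in control DLP. In such bulk tissue, fewer cells that express a gene and less RNA per cell cannot be told apart.

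In the urethra and the cultured sinus, which played no part in the choice of the genes, Slc9a3 was barely detected. T+E2 urethra held 0.07, 1.17, 0.36 and 0.98 TPM in libraries 1, 2, 3 and 4, against 0.47, 0.12, 0.26 and 0.09 TPM in control libraries 10, 6, 7 and 8. The highest 2 values were of treated urethra, but the groups overlapped, since treated library 1 was the lowest of all. Means were 0.645 ± 0.516 TPM with T+E2 and 0.235 ± 0.173 TPM in control, a difference of 0.41 TPM (exact two-sided permutation test over 70 assignments, p = 0.257, where 0.0286 is the smallest possible). Slc9a3 failed the filter of at least 1 TPM in at least 4 libraries there, and in the fit without that filter its log2 fold change was 0.37 ± 0.22 (limma, adjusted p = 0.461).

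Testosterone-treated UGS held 0.11, 0, 0.07 and 0 TPM of Slc9a3 in libraries B, C, G and H, and UGS without hormone held 0, 0.05, 0 and 0 TPM in libraries A, C, D and H. It was thus listed at 0 in 2 of 4 testosterone libraries and in 3 of 4 libraries without hormone. The difference of means was 0.0325 TPM (exact two-sided permutation test, p = 0.429). With depth unknown, these values say only that the transcript was at the bottom of the measured range.

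The weight of Slc9a3 among related transcripts differed with hormones too. The TPM of 6 exchanger genes (Slc9a2, Slc9a3, Slc9a5, Slc9a7, Slc9a8 and Slc9a9) were summed, which is possible because the unit corrects for length, and the shares below refer to these 6 and not to the whole family. In T+E2 AP Slc9a3 made up 60.0%, 55.3%, 64.0% and 67.4% of their sum in libraries 17, 18, 2 and 3, against 0.278% to 0.418% in control AP. It was the most abundant of the 6 in all 4 treated AP libraries and the least abundant in all 4 controls. In T+E2 DLP its share was 33.4%, 31.7%, 38.0% and 26.8% in libraries 1, 18, 2 and 24, against 0.385% to 0.885% in control DLP. There it ranked 1st in libraries 1 and 2 and 2nd, behind Slc9a2, in libraries 18 and 24. In T+E2 urethra the share was 0.233% to 3.38%, against 0.200% to 1.23% in control urethra, and in UGS it was at most 0.230% with testosterone and at most 0.143% without hormone. The 6 transcripts came to 179.36 to 334.29 TPM in T+E2 AP against 117.15 to 142.32 TPM in control AP. In DLP the sums overlapped, with 94.94 to 147.74 TPM with T+E2 and 93.77 to 106.48 TPM in control.

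**Figure D2:**
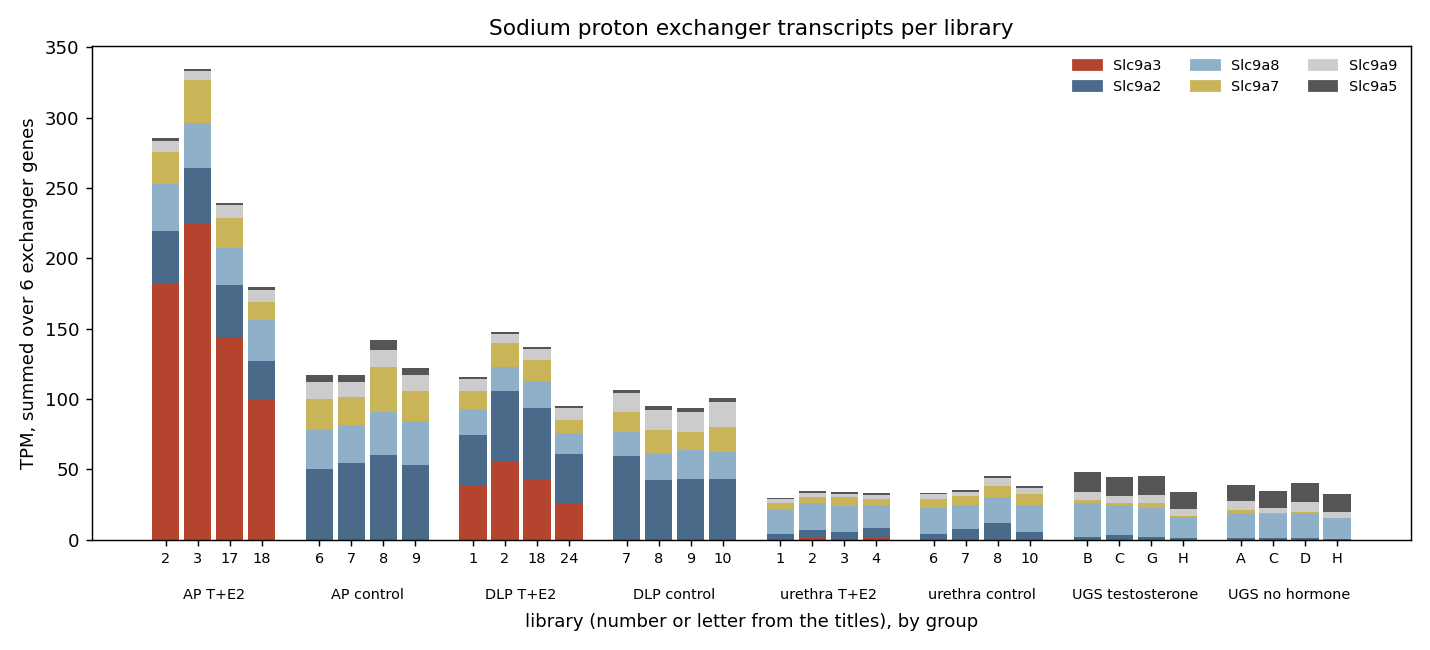
TPM of 6 exchanger genes stacked for every library (bars, 4 per group, labelled by library). The Slc9a3 segment at the base of each bar takes 55.3% to 67.4% of the bar in T+E2 AP and 26.8% to 38.0% in T+E2 DLP, and is hardly visible elsewhere.

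The 4 other exchangers examined did not follow Slc9a3. Of Slc9a2, Slc9a5, Slc9a7 and Slc9a9, whose median log2 change was -0.56 in AP, 0 were called higher and 3 lower in T+E2 AP (limma, Benjamini-Hochberg adjusted p under 0.05, with the same counts at an unadjusted p under 0.05), where 34.5% of all genes were called, 21.6% higher and 12.9% lower. Those shares are 2706 and 1617 genes, and the split was 2174 and 2305 after median-of-ratios scaling and 1982 and 2625 after quantile normalization. Slc9a2, an apical exchanger of gut epithelium, held 37.61, 27.66, 36.67 and 38.58 TPM in T+E2 AP, against 49.9, 54.46, 59.46 and 53.06 TPM in control AP. These values did not overlap, as for 34.4% of all genes in AP, and Slc9a2 fell by 0.62 ± 0.11 on the log2 scale (adjusted p = 0.00121). Slc9a5, an exchanger best known from brain, fell to 1.68 ± 0.533 TPM in T+E2 AP, against 5.57 ± 1.09 TPM in control AP, a log2 change of -1.30 ± 0.17 (adjusted p = 1.76e-04). Slc9a9, an endosomal exchanger, fell to 8.07 ± 1.17 TPM with T+E2, against 11.7 ± 0.805 TPM in control (-0.49 ± 0.11, adjusted p = 0.00502). Slc9a7, an exchanger of the trans-Golgi network, had 21.8 ± 7.27 TPM with T+E2 and 23.9 ± 5.63 TPM in control (adjusted p = 0.608).

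In DLP, where the median of the 4 was -0.45, 0 were called higher and 2 lower, in a fit where 6.09% and 4.63% of all genes were called in those directions (798 and 607 genes, or 981 and 1260 after quantile normalization). At an unadjusted p under 0.05, likewise 0 were higher and 2 lower. Slc9a9 fell to 8.11 ± 0.996 TPM in T+E2 DLP, against 15.0 ± 1.99 TPM in control DLP (-0.81 ± 0.11, adjusted p = 9.44e-04). Slc9a5 fell to 1.16 ± 0.105 TPM with T+E2, against 2.50 ± 0.444 TPM in control (-0.69 ± 0.12, adjusted p = 0.00536), a call that ended without the muscle-rich libraries 18 and 24 (adjusted p = 0.0550). Slc9a2 had 42.7 ± 8.34 TPM in T+E2 DLP and 46.4 ± 8.68 TPM in control DLP (adjusted p = 0.683). In urethra and UGS none of the 4 was called by limma, and at an unadjusted p under 0.05 the counts were 2 of 4 in urethra and 1 of 4 in UGS. The share of all genes at an unadjusted p was not computed in any tissue. Slc9a7 and Slc9a9 were lower in all 4 T+E2 urethra libraries than in any control library, by 0.45 ± 0.11 and 0.49 ± 0.15 on the log2 scale (adjusted p = 0.128 and 0.186). Groups without overlap, in either direction, occurred for 8.1% of all genes in urethra.

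**Figure D3:**
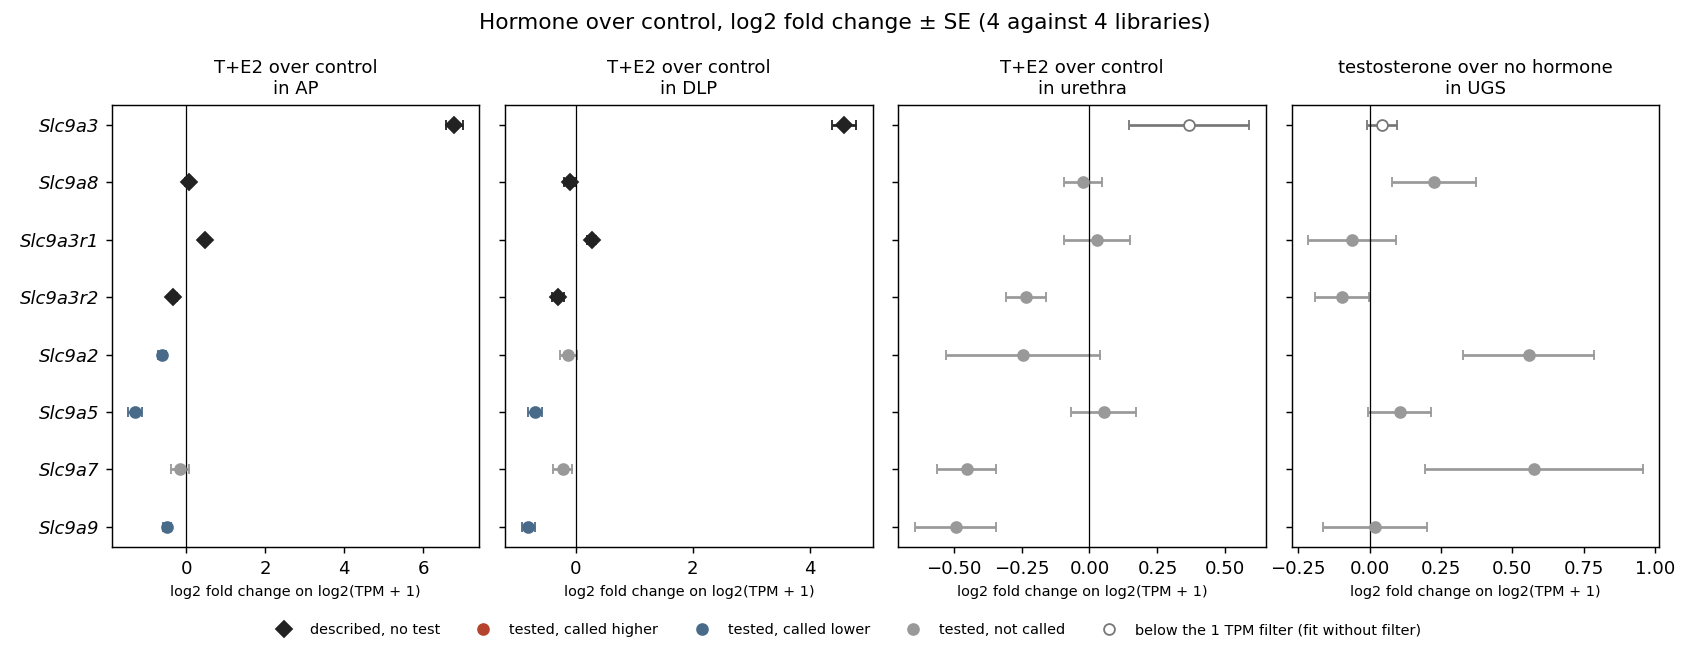
Log2 fold change of hormone over control on log2(TPM + 1), with SE bars, for the 4 genes (top rows) and 4 other exchangers in each tissue, 4 against 4 libraries. The horizontal scales differ between panels. Diamonds carry no test, red and blue points were called, grey points were not, and open points mark Slc9a3 where it was under the 1 TPM filter. Slc9a3 lies at 6.79 in AP and 4.58 in DLP, and every other point lies between -1.30 and 0.58.

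Slc9a8, the Golgi and apical exchanger, differed little with hormones in any tissue. In AP it held 26.23, 29.56, 33.44 and 32.05 TPM with T+E2 in libraries 17, 18, 2 and 3, against 27.42, 26.68, 30.69 and 30.93 TPM in control libraries 6, 7, 8 and 9. The groups overlapped, with a log2 fold change of 0.06 ± 0.09, or 0.21 with the 3 AP libraries that stood apart on seminal vesicle genes left out. In DLP it held 17.5 ± 1.94 TPM with T+E2 and 18.8 ± 1.67 TPM in control, and these overlapped too (-0.10 ± 0.10). Relative to the epithelial marker sum, DLP held 5.58 to 7.03 per 1000 TPM with T+E2 and 7.21 to 7.41 in control, without overlap. AP held 7.64 to 8.07 with T+E2 and 7.14 to 8.82 in control by that measure, with overlap. In DLP the marker sum itself averaged 2857 TPM with T+E2 and 2562 TPM in control. Urethra had 17.7 ± 1.21 TPM with T+E2 and 18.0 ± 0.974 TPM in control, a log2 fold change of -0.02 with a 95% interval of -0.18 to 0.14 (adjusted p = 0.900). UGS had 23.82, 21.29, 20.63 and 15.09 TPM with testosterone in libraries B, C, G and H, against 17.88, 17.18, 18.17 and 14.68 TPM without hormone in libraries A, C, D and H. Testosterone libraries B, C and G were above all libraries without hormone and library H was not, and the difference of 0.23 on the log2 scale (95% interval -0.10 to 0.55) did not pass the test (adjusted p = 0.288). Without testosterone library H it was 0.35 (adjusted p = 0.0442). In UGS the median log2 change of all genes was 0.17, and rescaling by median-of-ratios factors or quantile normalization moved that median by -0.17 and -0.20. The Slc9a8 difference in UGS was thus close to that of the median gene, and it was -0.03 after quantile normalization.

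The scaffold genes stood on opposite sides of control in the treated lobes. Slc9a3r1 (NHERF1) held 133.94, 128.05, 134.67 and 118.2 TPM in T+E2 AP libraries 17, 18, 2 and 3, against 87.2, 87.19, 102.42 and 92.39 TPM in control libraries 6, 7, 8 and 9. Every treated library was above every control library, with a log2 fold change of 0.48 ± 0.07. In T+E2 DLP libraries 1, 18, 2 and 24 it held 112.68, 100.97, 97.9 and 97.67 TPM, against 95.52, 76.01, 84.37 and 82.88 TPM in control libraries 10, 7, 8 and 9. The gap there was narrow, with the lowest treated library just above the highest control, and the log2 fold change was 0.27 ± 0.08. Per 1000 TPM of the epithelial marker sum, the DLP groups overlapped, at 31.8 to 41.8 with T+E2 and 29.0 to 36.0 in control. The AP groups did not, at 28.6 to 39.0 with T+E2 and 23.3 to 27.0 in control.

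Slc9a3r2 (NHERF2) was lower in treated AP. Libraries 17, 18, 2 and 3 held 52.51, 53.2, 64.04 and 62.76 TPM with T+E2, against 71.61, 72.65, 76.43 and 70.91 TPM in control libraries 6, 7, 8 and 9. The groups did not overlap, and the lowest 2 values were those of the T+E2 libraries rich in seminal vesicle transcripts. The log2 fold change was -0.33 ± 0.08, or -0.21 without the 3 libraries rich in those transcripts. In T+E2 DLP it held 50.96, 56.0, 50.98 and 44.39 TPM in libraries 1, 18, 2 and 24, against 64.69, 52.32, 60.71 and 72.23 TPM in control libraries 10, 7, 8 and 9. Control library 7 lay below treated library 18, so these groups overlapped, with a log2 fold change of -0.29 ± 0.10. Per 1000 TPM of the epithelial marker sum they did not, at 16.6 to 18.9 with T+E2 and 23.1 to 25.2 in control. In TPM, 3 of the 4 genes had groups without overlap in AP, where 34.4% of all genes did, and 2 in DLP, where 16.3% did. The genes were chosen on these comparisons, so nothing is read from those counts.

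Since TPM is per length, the level of the scaffolds can be set against each other within a library. Slc9a3r1 exceeded Slc9a3r2 by a ratio of 1.88 to 2.55 in T+E2 AP and of 1.20 to 1.34 in control AP. In DLP the ratio was 1.80 to 2.21 with T+E2 and 1.15 to 1.48 in control. It was 0.746 to 1.08 in T+E2 urethra and 0.671 to 0.826 in control urethra, and 0.756 to 1.05 in UGS with testosterone and 0.778 to 1.06 without hormone. A ratio within a library does not depend on the scaling between libraries. The ratio of Slc9a3 to Slc9a3r1 TPM was 0.774 to 1.91 in T+E2 AP against 0.00368 to 0.00562 in control AP, and 0.261 to 0.573 in T+E2 DLP against 0.00539 to 0.0100 in control DLP.

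**Figure D4:**
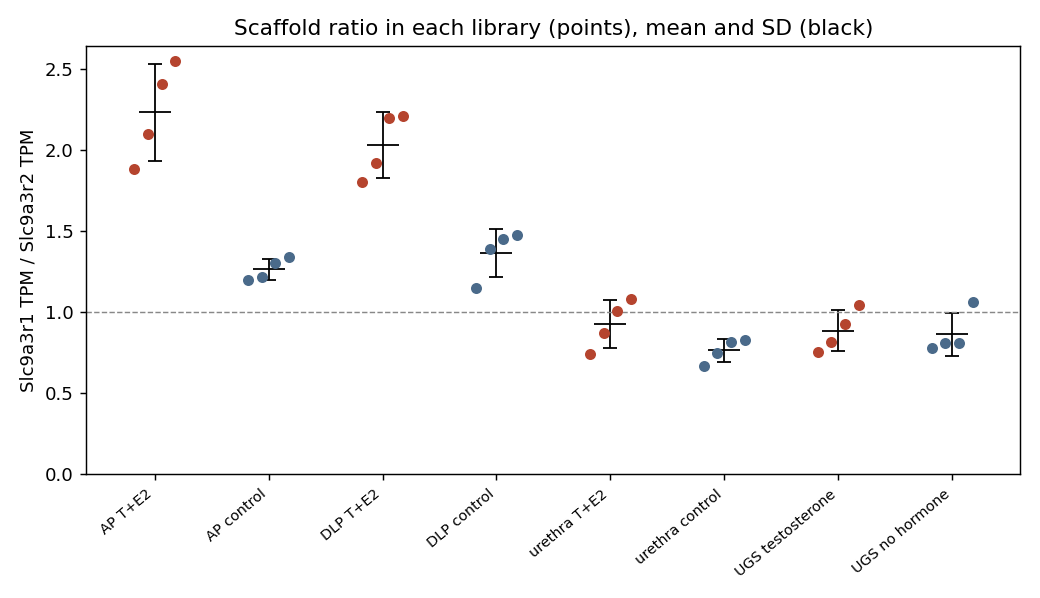
Ratio of Slc9a3r1 to Slc9a3r2 TPM in every library (points) of the 8 groups, with mean and SD in black (n = 4) and a dashed line at a ratio of 1. Both treated lobes lie at 1.80 or above, both control lobes between 1.15 and 1.48, and most urethra and UGS libraries below 1.

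In the urethra, where scaffolds were tested, neither passed. Slc9a3r1 held 53.6 ± 10.1 TPM with T+E2 and 51.8 ± 2.25 TPM in control (log2 fold change 0.03, 95% interval -0.24 to 0.30, adjusted p = 0.934). Slc9a3r2 held 55.11, 60.04, 58.22 and 56.89 TPM in T+E2 libraries 1, 2, 3 and 4, against 77.2, 67.33, 61.03 and 66.73 TPM in control libraries 10, 6, 7 and 8. All treated libraries lay below all controls, and 8.1% of genes in this tissue had no overlap in either direction. The difference of -0.23 ± 0.07 had an adjusted p of 0.203 (unadjusted p = 0.0113, limma). Urethra had few calls of any kind, 0.362% of 12985 genes, or 47 genes, a count that was 7 without T+E2 library 2 and 174 without control library 6. In UGS Slc9a3r1 held 36.9 ± 7.18 TPM with testosterone and 38.3 ± 6.35 TPM without hormone (-0.06, 95% interval -0.40 to 0.28, adjusted p = 0.792). Slc9a3r2 held 41.5 ± 4.77 TPM with testosterone and 44.3 ± 1.23 TPM without hormone (-0.10, 95% interval -0.31 to 0.11, adjusted p = 0.470). In UGS 1.73% of genes were called, or 230 genes against 4558 without testosterone library H, and 10.8% of all genes had groups without overlap, none of them among these 4. Of the 4 genes, 3 passed the filter on low values in both tissues.

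Untreated tissues differed in Slc9a8 and Slc9a3r1. The 12 control libraries of AP, DLP and urethra were fitted together. Those of AP and DLP also belong to the comparisons on which the genes were chosen, so the p-values here are not independent of that choice. Slc9a8 was higher in AP than in DLP, at 28.9 ± 2.19 TPM in AP and 18.8 ± 1.67 TPM in DLP (log2 difference 0.60 ± 0.08, adjusted p = 2.81e-05), and higher in AP than in urethra (0.65 ± 0.08, adjusted p = 3.51e-06). Between DLP and urethra the difference was 0.06 (95% interval -0.11 to 0.22, adjusted p = 0.540). Slc9a3r1 was higher in AP, at 92.3 ± 7.18 TPM, than in urethra, at 51.8 ± 2.25 TPM (0.82 ± 0.07, adjusted p = 2.63e-07), and higher in DLP, at 84.7 ± 8.08 TPM, than in urethra (0.69 ± 0.07, adjusted p = 2.30e-06). AP and DLP did not differ detectably in Slc9a3r1 (0.12, 95% interval -0.04 to 0.28, adjusted p = 0.164). Differences were common among these tissues, with 59.6% of genes called between AP and DLP, 74.9% between AP and urethra, and 63.3% between DLP and urethra. Slc9a8 libraries did not overlap between AP and DLP, as for 52.7% of all genes, and Slc9a8 and Slc9a3r1 libraries did not overlap between AP and urethra, as for 69.7% of all genes. Slc9a3r1 libraries did not overlap between DLP and urethra either, as for 56.7% of all genes. The tissues also differed in makeup. The epithelial marker sum was 3506 to 3792 TPM in control AP, 2261 to 2861 TPM in control DLP and 1584 to 1762 TPM in control urethra, and all 12 skeletal muscle markers were lower in AP and in DLP than in urethra. Per 1000 TPM of the epithelial marker sum, Slc9a3r1 held 23.3 to 27.0 TPM in control AP and 30.6 to 31.8 TPM in control urethra. Control DLP held 29.0 to 36.0 TPM by that measure. Slc9a8 held 7.14 to 8.82 TPM in control AP, 7.21 to 7.41 TPM in control DLP and 10.5 to 11.5 TPM in control urethra. By that measure both genes were lower in AP than in urethra. The part of tissue makeup in these differences was not tested.

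Slc9a3r2 spanned a narrower range of TPM in untreated tissue. AP held 72.9 ± 2.46 TPM, DLP 62.5 ± 8.29 TPM and urethra 68.1 ± 6.71 TPM. Relative to the epithelial marker sum, it held 19.4 to 20.2 per 1000 TPM in AP, 23.1 to 25.2 in DLP and 38.2 to 47.4 in urethra. The AP to DLP difference of 0.23 ± 0.09 passed narrowly (adjusted p = 0.0449), while the libraries overlapped. That call was lost in 9 of 12 fits that left out a library, with adjusted p up to 0.132 without DLP control library 7, and with median-of-ratios scaling (0.15, adjusted p = 0.0886), and the difference was -0.01 after quantile normalization. AP and urethra differed by 0.10 (95% interval -0.09 to 0.30, adjusted p = 0.324; -0.09 after quantile normalization) and DLP and urethra by -0.13 (95% interval -0.32 to 0.07, adjusted p = 0.242). Slc9a3 in these tissues is only described, at 0.34 to 0.49 TPM in AP, 0.41 to 0.83 TPM in DLP and 0.09 to 0.47 TPM in urethra. Among the other exchangers, Slc9a2 was the one with the widest gap between prostate and urethra. It held 54.2 ± 3.98 TPM in AP, 46.4 ± 8.68 TPM in DLP and 7.12 ± 3.50 TPM in urethra (AP over urethra 2.86 ± 0.23, adjusted p = 8.16e-08, and DLP over urethra 2.63 ± 0.23, adjusted p = 3.32e-07).

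Set in order over all 8 groups, the 4 genes had different profiles. Slc9a3 was highest in T+E2 AP and next highest in T+E2 DLP, with no overlap between them or with the remaining groups. It then ran through control DLP, T+E2 urethra, control AP, control urethra, testosterone UGS and UGS without hormone, each of which overlapped its neighbour. Slc9a8 was highest in T+E2 AP and control AP, which overlapped, and the remaining 6 groups, from testosterone UGS at 20.2 TPM to UGS without hormone at 17.0 TPM, overlapped in a chain. Slc9a3r1 formed 3 tiers without overlap, namely T+E2 AP, then T+E2 DLP with control AP and control DLP, then the urethra and UGS groups. In the lowest tier T+E2 urethra library 1, at 41.09 TPM, lay below library C of testosterone UGS, at 46.67 TPM, and library A of UGS without hormone, at 47.84 TPM, while control urethra, at 50.06 TPM or more, lay above all UGS libraries. Slc9a3r2 had no break between neighbours, from control AP at 72.9 TPM to testosterone UGS at 41.5 TPM. Over the 32 libraries, which share tissue and treatment, the pair Slc9a3 and Slc9a3r1 had the highest correlation of log2(TPM + 1), with r = 0.746 and rho = 0.874, and Slc9a3 and Slc9a3r2 the lowest r, at 0.017 (rho = 0.337). These values describe 8 groups more than 32 independent points.

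By the correlation of log2(TPM + 1) over the 32 libraries among 13773 genes, the 5 patterns most like Slc9a3 were those of 1700019N19Rik (r = 0.991), Gm15941 (r = 0.988), Cyp3a25 (r = 0.981), Nrn1l (r = 0.976) and Atp13a4 (r = 0.971). By rank the correlations were lower, with Spearman's rho at 0.713, 0.774, 0.911, 0.490 and 0.874 in the same order. All 5 genes lie on other chromosomes than Slc9a3, which is on chromosome 13. Nrn1l, which encodes a membrane-anchored protein, averaged 156 TPM in T+E2 AP against 0.535 TPM in control AP, and 31.9 TPM in T+E2 DLP against 0.505 TPM in control DLP. Atp13a4, a P-type transport ATPase gene, averaged 43.6 TPM in T+E2 AP against 0.273 TPM in control AP. Cyp3a25, a cytochrome P450 gene, averaged 11.9 TPM in T+E2 AP against 0.278 TPM in control AP. Gm15941 is annotated as antisense, and without a stated strand its reads cannot be told apart from those of a gene on the other strand. The nearest patterns to Slc9a8 were Srp68 (r = 0.935), Phlpp1 (r = 0.919) and Bsdc1 (r = 0.912), those to Slc9a3r1 were Tmc4 (r = 0.980), Ms4a5 (r = 0.973) and Spint2 (r = 0.972), and those to Slc9a3r2 were Bcat2 (r = 0.901), Crip2 (r = 0.886) and Slamf9 (r = 0.883). Spint2, an epithelial protease inhibitor, averaged 1068 TPM in T+E2 AP and 865 TPM in control AP, against 405 TPM in T+E2 urethra and 376 TPM in control urethra. It is also part of the epithelial marker sum used above.

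Genes that work with the exchangers were examined in lists. Of 19 exchanger partners and regulators in AP, 7 were higher and 2 lower with T+E2, with a median log2 change of 0.13 against 0.07 over all genes, of which 21.6% were called higher and 12.9% lower. The kinase gene Sgk1, whose product activates epithelial sodium transport and NHE3, rose to 461 ± 62.7 TPM with T+E2, against 292 ± 54.0 TPM in control (0.67 ± 0.13, adjusted p = 0.00289). Nedd4l, a ubiquitin ligase of sodium channels (0.86 ± 0.12, adjusted p = 3.10e-04), and Myo6, a myosin of endocytosis (0.60 ± 0.11, adjusted p = 0.00176), rose as well. Ezr, which encodes the ezrin that NHERF1 binds, rose with overlap of the groups (0.43 ± 0.13, adjusted p = 0.0302), and Pdzk1, a related PDZ scaffold, had 3.35 TPM with T+E2 and 2.42 TPM in control (adjusted p = 0.255). Dpp4, a brush border peptidase that binds NHE3 in kidney, fell in AP by 0.47 ± 0.14 (adjusted p = 0.0232). That call was lost without control library 6 or 8 (adjusted p up to 0.0619) and without the AP libraries rich in seminal vesicle transcripts (adjusted p = 0.0576). The count of 2 lower partners was 0 without those libraries, 0 or 1 with any single AP library left out, and 1 with a filter at 5 TPM, without the trend or with robust hyperparameters. The count of 7 higher was 4 after quantile normalization. Ezr and Pdzk1 were picked after their values were seen, for their link to the scaffolds. In DLP, 1 of 19 partners was higher and 1 lower, with a median of 0.0041 against 0.02 over all genes, of which 6.09% were called higher and 4.63% lower. Nedd4l rose in DLP by 0.31 ± 0.07 (adjusted p = 0.0239), a call lost in 5 of 8 fits that left out a library (adjusted p up to 0.0754). Dpp4 fell in DLP by 0.53 ± 0.10 (adjusted p = 0.00688). Without the muscle-rich DLP libraries both counts were 0, and Dpp4 and Nedd4l were no longer called (adjusted p = 0.0562 and 0.0825).

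Proton pump genes were called in both directions. Of 22 in AP, 2 were higher and 3 lower (median log2 change 0.02), against 21.6% and 12.9% of all genes, and after quantile normalization 8 were lower. Atp4a, the catalytic subunit of the gastric proton potassium pump, rose to 57.4 ± 27.5 TPM in T+E2 AP, against 0.89 ± 0.163 TPM in control AP (4.83 ± 0.27, adjusted p = 4.55e-07). Atp12a, the related non-gastric pump, fell to 83.8 ± 5.42 TPM with T+E2, against 262 ± 36.0 TPM in control (-1.62 ± 0.09, adjusted p = 5.71e-07). The same pair differed in DLP, where Atp4a rose to 23.3 ± 4.72 TPM with T+E2, against 5.24 ± 1.92 TPM in control (1.99 ± 0.21, adjusted p = 1.61e-04), and Atp12a fell to 31.5 ± 6.59 TPM with T+E2, against 83.6 ± 13.9 TPM in control (-1.39 ± 0.16, adjusted p = 3.11e-04). Of the vacuolar pump genes, Atp6ap1 rose in AP (0.64 ± 0.09, adjusted p = 2.53e-04) and in DLP (0.42 ± 0.07, adjusted p = 0.00226). Atp6v1g1 fell in AP (-0.40 ± 0.08, adjusted p = 0.00336), and Atp6v1c2 fell in DLP to 183 ± 26.6 TPM with T+E2, against 368 ± 42.9 TPM in control (-1.01 ± 0.12, adjusted p = 3.13e-04). In DLP, 2 of 25 pump genes were higher and 3 lower (median -0.02), against 6.09% and 4.63% of all genes. The lower count in DLP was 5 with median-of-ratios scaling and 6 after quantile normalization.

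Of 8 carbonic anhydrase genes in AP, 2 were higher and 2 lower (median log2 change -0.03), against 21.6% and 12.9% of all genes. These enzymes make bicarbonate and protons from carbon dioxide. Car2, a cytosolic form, fell to 56.7 ± 14.1 TPM with T+E2, against 279 ± 30.2 TPM in control (-2.31 ± 0.17, adjusted p = 3.09e-06), and Car12, a membrane form, rose to 10.9 ± 2.42 TPM with T+E2, against 0.565 ± 0.221 TPM in control (2.91 ± 0.16, adjusted p = 4.46e-07). Car5b, a mitochondrial form, rose slightly in AP (0.32 ± 0.11, adjusted p = 0.0399), a call lost in 6 of 8 fits that left out a library. In DLP 1 of 8 was higher and 1 lower (median 0.07), against 6.09% and 4.63% of all genes. Car12 rose in DLP to 6.59 ± 0.842 TPM with T+E2, against 2.52 ± 0.866 TPM in control (1.13 ± 0.16, adjusted p = 0.00115). Car2 fell in DLP by 0.44 ± 0.11 (adjusted p = 0.0333), a call lost without the muscle-rich libraries (adjusted p = 0.158) and in 6 of 8 fits that left out a library (adjusted p up to 0.0825). Among bicarbonate and chloride transporters, 3 of 11 were higher and 1 lower in AP (median 0.07), and 1 of 14 was higher and 1 lower in DLP (median 0.16), near the shares over all genes. The higher count in DLP was 3 with median-of-ratios scaling and after quantile normalization, and the lower count in AP was 0 with a filter at 5 TPM. Slc4a7, a sodium bicarbonate cotransporter, rose in AP to 35.9 ± 8.07 TPM with T+E2, against 8.10 ± 0.934 TPM in control (2.00 ± 0.15, adjusted p = 4.52e-06). The chloride channel gene Ano1 rose in AP (0.93 ± 0.12, adjusted p = 1.64e-04) and in DLP (0.39 ± 0.07, adjusted p = 0.00701), and the anion exchanger gene Slc4a2 rose in AP (0.36 ± 0.09, adjusted p = 0.0117). Slc26a3, the chloride bicarbonate exchanger that works beside NHE3 in gut, fell in DLP to 15.7 ± 0.631 TPM with T+E2, against 29.3 ± 4.05 TPM in control (-0.85 ± 0.10, adjusted p = 3.43e-04).

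**Figure D5:**
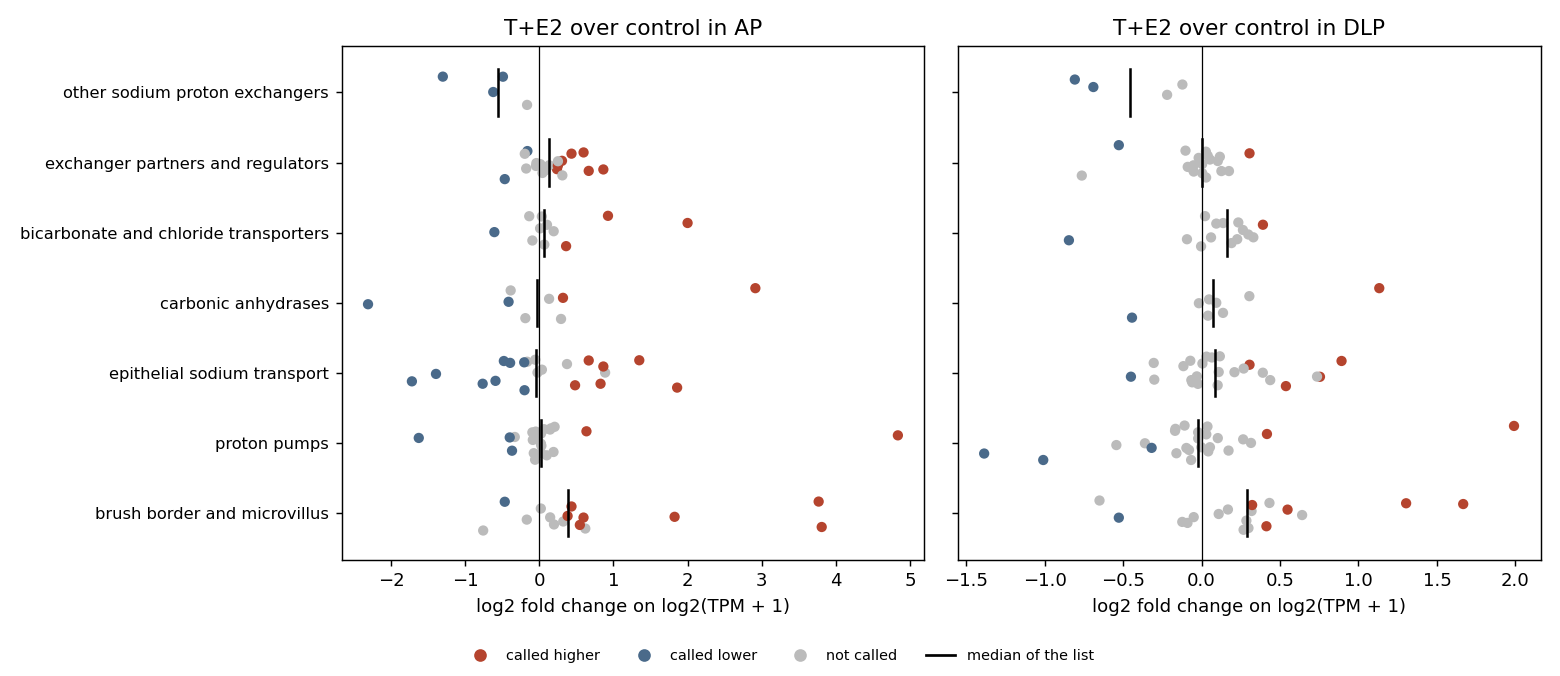
Log2 fold change of T+E2 over control on log2(TPM + 1) for each tested gene (points) of the 7 pathway lists in AP and DLP, with the list's median as a black bar. The horizontal scales differ, and points are spread vertically only to be seen. Atp4a is the rightmost point of the proton pumps in both panels, at 4.83 in AP and 1.99 in DLP.

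Of 20 epithelial sodium transport genes in AP, 6 were higher and 8 lower (median -0.04), against 21.6% and 12.9% of all genes. Atp1b1, which encodes a beta subunit of the sodium pump, fell to 149.9 ± 13.1 TPM with T+E2, against 495 ± 36.2 TPM in control (-1.72 ± 0.08, adjusted p = 1.38e-07). Scnn1b, a subunit of the epithelial sodium channel, rose to 8.69 ± 1.32 TPM with T+E2, against 1.70 ± 0.555 TPM in control (1.86 ± 0.16, adjusted p = 9.53e-06). Slc12a2, a sodium potassium chloride cotransporter, rose to 30.5 ± 26.4 TPM with T+E2, against 9.08 ± 1.59 TPM in control (1.35 ± 0.40, adjusted p = 0.0251), a call that limma with robust hyperparameters did not make (adjusted p = 0.0851) and that was lost without control library 6 or 7 (adjusted p up to 0.0651). In DLP 4 of 24 were higher and 1 lower (median 0.08), against 6.09% and 4.63% of all genes. Scnn1a (0.89 ± 0.17, adjusted p = 0.00688) and Scnn1b (0.75 ± 0.18, adjusted p = 0.0214) rose in DLP, and Nr3c2, the mineralocorticoid receptor gene, fell there by 0.45 ± 0.09 (adjusted p = 0.0127). The Scnn1b call in DLP was lost without control library 7, 8 or 10 (adjusted p up to 0.0607), and the Nr3c2 call without the muscle-rich libraries (adjusted p = 0.0812). Without the muscle-rich libraries 2 were higher and 0 lower in DLP, and without the AP libraries rich in seminal vesicle transcripts 5 were lower in AP, as also without T+E2 library 17 or control library 7 or 8.

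Among the 7 lists of exchangers and transport genes, brush border and microvillus genes had the highest median in both lobes. It was 0.38 in AP, where 7 of 15 were higher and 1 lower, against 21.6% and 12.9% of all genes, and 3 were lower with median-of-ratios scaling or quantile normalization. It was 0.29 in DLP, where 5 of 18 were higher and 1 lower, against 6.09% and 4.63% of all genes. Anpep, an apical aminopeptidase, rose to 119.7 ± 18.9 TPM in T+E2 AP, against 7.83 ± 0.957 TPM in control AP (3.77 ± 0.12, adjusted p = 8.78e-09), and to 55.6 ± 13.7 TPM in T+E2 DLP, against 16.6 ± 2.37 TPM in control DLP (1.67 ± 0.16, adjusted p = 1.04e-04). Prom2, a protein of membrane protrusions, rose to 183 ± 62.8 TPM in T+E2 AP, against 12.8 ± 7.03 TPM in control AP (3.81 ± 0.30, adjusted p = 5.31e-06), and to 316 ± 54.2 TPM in T+E2 DLP, against 127 ± 14.8 TPM in control DLP (1.30 ± 0.12, adjusted p = 8.66e-05). Ggt1, an apical glutathione-cleaving enzyme (1.82 ± 0.12, adjusted p = 1.72e-06), and Eps8l1, of a family that shapes actin protrusions (0.60 ± 0.11, adjusted p = 0.00148), rose in AP. Pls1, an actin bundler of microvilli, rose in DLP (0.55 ± 0.14, adjusted p = 0.0331), a call lost in 5 of 8 fits that left out a library (adjusted p up to 0.0808). Without the muscle-rich libraries 2 brush border genes were higher and 0 lower in DLP, and Pls1 was no longer called (adjusted p = 0.176).

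Few of these genes were called in the other tissues when all libraries were in the fit. In urethra 0 genes were higher in any of the 7 lists, where 0.2% of all genes were called higher and 0.162% lower. At an unadjusted p under 0.05, 13 of the 108 genes tested in the lists were higher and 24 lower (limma). The share of all genes at that unadjusted p was not computed, so those counts have no measure to be set against. The count of 0 did not hold under every setting. With median-of-ratios scaling 1 partner, 1 carbonic anhydrase and 1 sodium transport gene were higher. Without T+E2 library 1, 1 partner, 3 sodium transport and 2 brush border genes were higher, and without control library 6, 1 carbonic anhydrase was. Over all 12985 genes, these settings called 43, 106 and 33 higher, in the same order. Atp6v1b1, a vacuolar pump subunit of acid-secreting cells, fell there to 2.94 ± 0.305 TPM with T+E2, against 9.30 ± 1.35 TPM in control (-1.38 ± 0.11, adjusted p = 0.00212), the 1 pump gene of 23 called. Of 23 sodium transport genes 2 were lower, namely Fxyd2, a regulator of the sodium pump, at 10.8 ± 0.780 TPM with T+E2 against 21.7 ± 3.68 TPM in control (-0.94 ± 0.12, adjusted p = 0.0161, lost in 4 of 8 fits that left out a library), and Scnn1b (-0.77 ± 0.10, adjusted p = 0.0161), which is named because the count is small. Without T+E2 library 2 or 3, or control library 7 or 10, 0 sodium transport genes were lower, so Scnn1b was not called there either. In UGS 3 genes of the lists were called higher and 0 lower, where 1.43% of all genes were called higher and 0.301% lower. That split over all genes was 190 and 40, and 170 and 93 after median-of-ratios scaling. At an unadjusted p under 0.05, 33 of the 103 list genes were higher and 6 lower (limma). The share of all genes at that unadjusted p was not computed, so nothing is read from those 2 counts. The list counts rested on testosterone library H. Without it 13 of 19 partners, 9 of 15 bicarbonate and chloride transporters and 2 of 9 carbonic anhydrases were higher. So were 5 of 23 sodium transport genes, 2 of 19 pumps, 7 of 18 brush border genes and the exchanger gene Slc9a2. Lower were 3 sodium transport genes and 1 pump. That fit called 4558 of all 13304 genes, 4107 higher and 451 lower, so calls were common well beyond the lists. Prom1, a protein of apical membrane protrusions, rose to 121 ± 21.6 TPM with testosterone, against 67.2 ± 4.05 TPM without hormone (0.82 ± 0.12, adjusted p = 0.0104). The membrane carbonic anhydrase gene Car14 rose by 0.65 ± 0.13 (adjusted p = 0.0439) and Dpp4 by 0.83 ± 0.17 (adjusted p = 0.0493). The calls of Car14 and Dpp4 were lost with quantile normalization (adjusted p = 0.154 and 0.0631), and in 6 and 7 of 8 fits that left out a library.

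Between untreated tissues most of these genes differed, as did most genes. Of the 4 other exchangers, 2 were higher and 1 lower in AP than in DLP, 4 higher and 0 lower in AP than in urethra (41.4% and 33.4% of all genes), and 4 higher and 0 lower in DLP than in urethra (33.8% and 29.5% of all genes). In AP against DLP, where 36.1% of all genes were higher and 23.5% lower, 16 of 23 sodium transport genes were lower and 6 higher, and 12 of 18 brush border genes were lower and 2 higher. Among them Slc12a2 held 9.08 TPM in AP and 107 TPM in DLP (-3.31 ± 0.25, adjusted p = 4.53e-07) and Prom2 held 12.8 TPM in AP and 127 TPM in DLP (-3.32 ± 0.24, adjusted p = 4.07e-07). Pdzk1, the scaffold of the brush border, held 2.42 TPM in AP and 45.6 TPM in DLP (-3.73 ± 0.44, adjusted p = 1.43e-05). Atp12a, the non-gastric proton pump, was higher in AP, at 262 TPM, than in urethra, at 3.51 TPM (6.00 ± 0.27, adjusted p = 2.46e-10), and Ezr was higher in AP, at 785 TPM, than in urethra, at 116 TPM (2.77 ± 0.13, adjusted p = 3.55e-10).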

How the data were processed

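Bulk RNA sequencing of 32 libraries was deposited as a table of TPM for 13780 genes. Per the submitters' processing notes the tools were FastQC, STAR, RSEM and edgeR and the build was mm9. Versions and roles are not given in the sources used here. In the deposited table the highest group mean of every gene is at least 4.998 TPM, so genes low in all groups cannot be seen. Library sums were 994133 to 997961 TPM, and TPM retains no read depth. RNA was extracted with a kit and sequenced from Illumina libraries, per the labels' protocols.

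Values were analysed as log2(TPM + 1) with limma 3.58.1 in R 4.3.3, using a mean-variance trend. Genes at 1 TPM or more in at least 4 libraries of a fit were tested, with Benjamini-Hochberg adjustment over all genes fitted and calls at an adjusted p under 0.05. Each hormone comparison used its own 8 libraries, and the 3 untreated adult tissues shared a fit of 12. Intervals are 95% limma intervals of the log2 difference. Slc9a3, below the filter in urethra and UGS, was tested there by exact permutation. The procedure was tested on simulated data. Replicate numbers were checked as pairs and not used as such.

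The genes and lists were chosen with earlier results of these data known. The lists are 7 of related pathways and 6 of cell type markers (221 entries, 173 genes in the table). Named list genes were the called genes with the largest absolute log2 fold change, up to 4 per list and comparison, among genes averaging 5 TPM or more in whichever group was higher. Some genes of the pathways are not reported here, and list counts and exchanger sums do not include them. The list of other exchangers had 11 entries, and all 4 of them with values here are given. Other exceptions are marked where they occur. The nearest patterns were the 5 highest Pearson correlations for Slc9a3 and 3 for each other gene. Alternatives were other pseudocounts, filters, scalings and limma settings, a replicate block, and each library left out. Promoter windows came from RefSeq, GRCm38.p6.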

Additional observations from a re-analysis of the deposited data

Results flagged for a closer look

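In 4 of 64 sets of 4 libraries (6 exchangers and 2 scaffolds in 8 groups), the library at an end lay further from its nearest neighbour than Dixon's criterion allows (gap over range above 0.829). Chance alone flags about 1 in 20 such groups. Slc9a3 in UGS without hormone was 0.05 TPM in library C and 0 in the other 3, and Slc9a3r1 there was 47.84 TPM in library A, against 35.45 TPM in the next. Slc9a2 was 59.44 TPM in control DLP library 7, above the next value of 42.31 TPM. The same library had the lowest Slc9a3r1 and Slc9a3r2 of control DLP, at 76.01 and 52.32 TPM. Slc9a5 was 7.19 TPM in control AP library 8, against 5.12 TPM in the next.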

How the results depend on the processing

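The Slc9a3 difference in the treated lobes depended on the pseudocount, with a log2 fold change of 8.25 in AP and 5.67 in DLP at 0.1, and of 4.89 and 2.97 at 5. Leaving out each library gave 6.61 to 7.01 in AP and 4.42 to 4.78 in DLP. In AP, Slc9a3r1 was 0.36 after quantile normalization, and with the libraries high in seminal vesicle genes left out, Slc9a8 was 0.21 and Slc9a3r2 was -0.21. Genes called in DLP numbered 1405, against 2241 after quantile normalization and 727 without the muscle-rich libraries. Genes called in urethra numbered 22 without a filter, 77 with median-of-ratios scaling, 73 after quantile normalization and 7 to 174 with a library left out. In UGS they numbered 96 to 4558 with a library left out. Several small differences changed sign; among them only that of Slc9a3r2 between untreated AP and DLP had passed the test. For Slc9a8, the urethra value was 0.0186 with median-of-ratios scaling and 0.0118 after quantile normalization, and the UGS value was -0.0326 after quantile normalization. With a library left out, urethra Slc9a8 was -0.0601 to 0.0171 and Slc9a3r1 -0.0543 to 0.15, and UGS Slc9a3r1 was -0.18 to 0.0478 and Slc9a8 0.14 to 0.35. Between untreated AP and DLP, quantile normalization gave -0.12 for Slc9a3r1 and -0.0128 for Slc9a3r2. Slc9a3r2 there was 0.15 with median-of-ratios scaling, 0.23 without the trend (adjusted p = 0.0584), and 0.15 to 0.30 with a library left out. Slc9a3r1 there was 0.0737 to 0.18, and it passed without DLP control library 10 (adjusted p = 0.0432). Between untreated AP and urethra, Slc9a3r2 was -8.2e-04 with median-of-ratios scaling and -0.0865 after quantile normalization. The causes of these shifts were not tested.

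Replicate numbers were not taken as pairs, since the labels do not say what they mark. Deviations of same-numbered control libraries of different tissues had correlations of -0.136 to 0.214, and those of differently numbered ones -0.259 to 0.181. The 2 shared UGS letters had 0.0624 and 0.627, and unlike letters -0.549 to 0.467. Such values cannot show whether libraries with a shared number came from the same animal. With a replicate block by number, calls between untreated tissues numbered 7475, 9724 and 8056, and no call of Slc9a8, Slc9a3r1 or Slc9a3r2 changed. With a replicate block by letter, UGS calls numbered 2978, and the differences were 0.20 for Slc9a3r1 and 0.0696 for Slc9a3r2, neither passing. Only letters C and H occur in both UGS groups, so the differences in that fit rest on 2 pairs of libraries. That block also raised the list counts in UGS, with 9 of 19 partners, 7 of 15 bicarbonate and chloride transporters and 2 of 9 carbonic anhydrases higher. Also higher were 3 of 23 sodium transport genes, 5 of 19 pumps and 6 of 18 brush border genes, and 2 sodium transport genes were lower. Over all 13304 genes that fit called 2669 higher and 309 lower. T+E2 and control libraries of the adult tissues share no numbers. The split of UGS calls after quantile normalization was 167 higher and 134 lower. For named list genes, 58 results (each a gene in a hormone comparison) had 972 alternative values. Of these, 907 kept the call or its absence, 64 lost the call and 1 gained it. Called results did not change direction. For uncalled results a change of sign was not counted, as with Slc9a7 in AP, at -0.34 to 0.0547 with a library left out. Depth is unknown, so no counting error can be given for values near 0 TPM.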
